A study of Mus musculus with 91 samples.

Results

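The heat shock proteins and DnaJ chaperones were 70 of the 16580 genes counted in 91 single cells of mouse bone marrow stroma. Members were all genes whose names begin with Hsp or with Dnaja, Dnajb or Dnajc, together with the heat shock factors Hsf1 and Hsf2 and the cochaperones Bag3, Chordc1 and Stip1, at 10 counts or more over the 91 cells. Hspa5 and Hsp90b1, which encode chaperones of the endoplasmic reticulum, and Hspg2, a proteoglycan gene, were left out by the rule. All 70 matching genes had at least 10 counts, so none stood below that limit. The fewest counts were 28 for Hspd1-ps3 and 42 for Hsp25-ps1, which are pseudogenes. The members were read as 13 heat-inducible genes, 55 other members and the 2 heat shock factors.

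The cells came from C57BL/6 mice, from the medium left after bones were crushed, and were sorted into wells as VCAM1-positive, negative for the blood cell markers CD45, Ter119, CD41 and CD71, and positive for a DNA dye. Each cell gave a Smart-seq2 library, which covers transcripts over their full length. There were 39 VCAM1+CD61+ cells from plates of 17 and 22 cells, 40 VCAM1+CD61- cells from plates of 24 and 16 cells, and 9 VCAM1+ cells from wells sorted without a CD61 gate (CD61 is an integrin subunit). In 3 further cells the title and the gate label disagreed, and these entered no comparison. No treatment, age or animal is named in the labels, so each gate was 1 sample and no test was run. No plate held cells of both CD61 gates, and an effect of the plate and one of the gate cannot be told apart. Median total counts per cell were 1887613 in CD61+ cells (507713 to 5301885), 2368345 in CD61- cells (741133 to 4991550) and 4004927 in VCAM1+ cells (1152643 to 6702475). Markers of the stromal classes differed with the gate. The 15 osteolineage markers summed to 89354 and 97775 CPM (counts divided by the total and scaled to 1e+06) in the CD61+ plates, against 23672 and 28752 CPM in the CD61- plates. The 16 markers of CAR cells, stromal cells rich in Cxcl12 that form niches for blood stem cells, summed to 20408 and 20559 CPM in the CD61+ plates, against 49883 and 38184 CPM in the CD61- plates. The part of this difference in cell makeup in the gate results was not tested, except where values within CAR-like cells are given.

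Heat shock proteins are chaperones that bind unfolded proteins and help them fold or be degraded. HSP70 proteins work with DnaJ proteins, which bring them clients and speed up their ATP hydrolysis, and with nucleotide exchange factors such as the HSP110 proteins, before clients pass to HSP90 or to chaperonins. Some members are present in every cell, while others are switched on when heat shock factor 1 binds heat shock elements, repeats of GAA and its reverse complement TTC, in their promoters. In cells taken from solid tissue, the inducible members are often read together with immediate early genes such as Fos, because tissue handling can raise both.

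The promoters of the inducible members carried such repeats more often than those of the other members. RefSeq windows on build GRCm38.p6, from 250 bases before to 50 bases after the start of transcription, were found for 55 of the 70 members. The motif with 2 units was searched as GAANNTTC or TTCNNGAA, each its own reverse complement, and the motif with 3 units as GAANNTTCNNGAA or its reverse complement TTCNNGAANNTTC, which contains the shorter ones. The motif with 2 units stood in 10 of 12 inducible members (83.3%) and in 6 of 43 other members (13.95%), against 17.0% of 27025 genes. The motif with 3 units stood in 4 of 12 inducible members, Chordc1, Hspd1, Hspe1 and Hsph1, and in 1 of 43 other members, Dnajb6, against 0.662% of all genes. The inducible list was made of genes known to rise through heat shock factor 1, so the choice of list itself favours such matches. A match describes letters in this window and is no evidence of binding. The windows of 4 inducible members, chosen to show different placements of the motif, are given 5′ to 3′ in the direction of transcription, with matches in capitals. The Hspa1b window differs from that of Hspa1a at 4 of 300 positions and is not shown, and both count among the 10 inducible members with a match.
Hspa1a (chr17:34972107-34972406, minus strand): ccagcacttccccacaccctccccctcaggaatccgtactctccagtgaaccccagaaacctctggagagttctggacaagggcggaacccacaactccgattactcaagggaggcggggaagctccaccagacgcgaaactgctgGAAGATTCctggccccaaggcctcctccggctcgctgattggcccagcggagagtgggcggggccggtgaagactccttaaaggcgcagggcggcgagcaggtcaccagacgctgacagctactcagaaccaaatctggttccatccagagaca
Hsph1 (chr5:149636287-149636586, minus strand): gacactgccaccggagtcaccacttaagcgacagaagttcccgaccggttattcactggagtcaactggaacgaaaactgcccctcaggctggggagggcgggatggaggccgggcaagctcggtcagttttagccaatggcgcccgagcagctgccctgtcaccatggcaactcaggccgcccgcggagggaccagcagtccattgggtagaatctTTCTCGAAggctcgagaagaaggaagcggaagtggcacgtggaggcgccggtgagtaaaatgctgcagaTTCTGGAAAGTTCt
Hspe1 (chr1:55087898-55088197, plus strand): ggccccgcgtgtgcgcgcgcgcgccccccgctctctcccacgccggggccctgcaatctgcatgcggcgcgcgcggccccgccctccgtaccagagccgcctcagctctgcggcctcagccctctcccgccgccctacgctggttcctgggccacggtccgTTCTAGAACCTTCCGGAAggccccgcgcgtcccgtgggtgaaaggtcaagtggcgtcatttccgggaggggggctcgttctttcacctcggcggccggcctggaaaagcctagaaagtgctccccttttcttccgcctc
Chordc1 (chr9:18292017-18292316, plus strand): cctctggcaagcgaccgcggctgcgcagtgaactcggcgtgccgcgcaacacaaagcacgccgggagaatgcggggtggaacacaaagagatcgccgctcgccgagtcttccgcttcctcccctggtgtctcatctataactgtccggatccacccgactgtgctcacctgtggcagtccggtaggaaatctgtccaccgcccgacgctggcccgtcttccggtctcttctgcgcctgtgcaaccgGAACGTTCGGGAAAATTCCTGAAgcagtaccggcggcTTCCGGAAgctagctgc
In Hspa1a, which encodes the stress-inducible HSP70, the match had 2 units and ended 97 bases before the start of transcription. In Hspe1, which encodes the HSP10 lid of the mitochondrial chaperonin, an unbroken run of 3-unit matches lay from base 89 to base 72 before the start. In Chordc1, an HSP90 cochaperone, the run crossed the start, from base 4 before it to base 19 after it, and in Hsph1, an HSP110 protein, the 3-unit match lay at bases 37 to 49 after the start.

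The summed level of the inducible members was lower over the CD61+ gate than over the CD61- gate, but the plates of the gates overlapped. Inducible members summed to 3662 CPM over all CD61+ cells and 6425 CPM over all CD61- cells, with 7117 CPM over the VCAM1+ cells. By plate the sums were 5074 and 2198 CPM in CD61+ cells and 4352 and 9217 CPM in CD61- cells. Hsp90aa1, with plate values given below, was the largest part of the inducible sum in each plate, so these sums and shares weigh it most. The 55 other members summed to 5159 and 4134 CPM in the CD61+ plates, against 5496 and 6421 CPM in the CD61- plates, which did not overlap. Hspa8 and Hsp90ab1, with plate values given below, made up a large part of these sums, and the sums without them were not computed. Member by member the direction was not shared. Of the 51 tested, 28 had a log2 ratio of CD61+ over CD61- above 0 and 23 below, with a median of 0.22. Inducible members made up 43.8% of all member counts in CD61+ cells and 52.1% in CD61- cells, while VCAM1+ cells had 58.3%. Split by plate, it was 49.4% and 34.6% for CD61+ and 44.1% and 58.8% for CD61-.

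The spread between cells of a gate was far wider for the inducible than for the other members. Per cell, the inducible sum had a median of 1760 CPM (43.3 to 27361) in CD61+ cells, 2676 CPM (0 to 32840) in CD61- cells and 3893 CPM (1373 to 22434) in VCAM1+ cells. The sum of the other members had a median of 4073 CPM (2111 to 9220) in CD61+ cells, 4775 CPM (2023 to 16072) in CD61- cells and 5043 CPM (1519 to 8710) in VCAM1+ cells. Between cells the inducible sums thus overlapped almost completely across gates, and the median inducible share of member CPM was 34.6% in CD61+ cells and 33.2% in CD61- cells. In 1 cell of each of 3 plates the inducible sum stood far above that of the other cells, with Hsp90aa1 as the leading member. These cells had 27361 CPM in CD61+ plate 1 and 25721 and 32840 CPM in CD61- plates 1 and 2, while the highest cell of CD61+ plate 2 had 6104 CPM. Without the highest cell of each plate, the inducible sums were 3686 and 2039 CPM in the CD61+ plates and 3162 and 6951 CPM in the CD61- plates, again with overlap. The cell with no count of any inducible member, in CD61- plate 1, had 1571949 counts but 1244 genes and was led by Dnajc7 among the members.

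**Figure D1:**
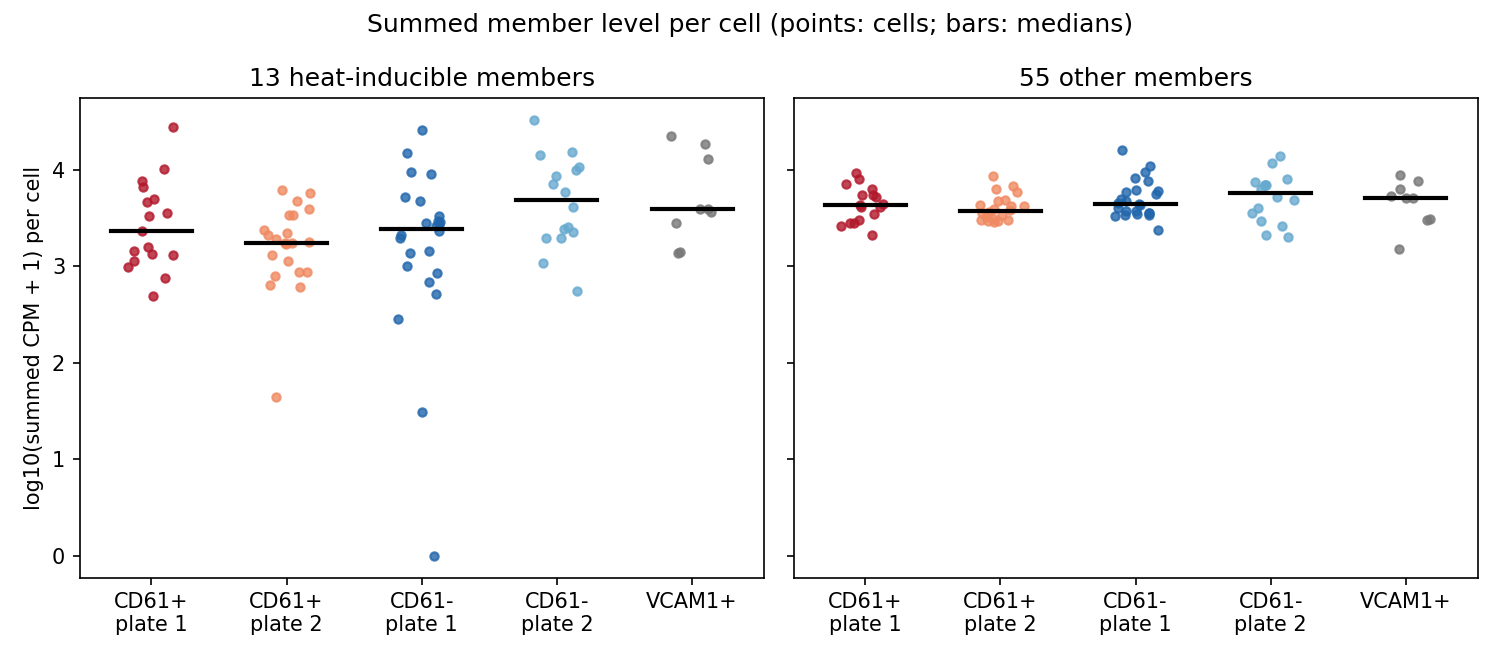
Summed level per cell, as log10 of CPM plus 1, of the 13 heat-inducible members (left) and the 55 other members (right), by plate, with VCAM1+ cells last. Points are cells and bars are medians; the inducible sums of CD61- cells reach from 0 to 32840 CPM and the other sums from 2023 to 16072 CPM.

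Of the 70 members, 66 passed the filter on low counts, and in 13 of these both CD61+ plates stood above both CD61- plates, called higher here. In 12 both CD61+ plates stood below, called lower, and 41 overlapped. By this rule 20.0% of the 14063 genes tested were called higher and 17.8% lower, so the members as a whole stood near the background. The median log2 ratio of CD61+ over CD61- was 0.01 over the members and 0.01 over all genes tested. Among the inducible members, 3 of 13 were higher (Chordc1, Hspd1, Stip1) and 4 were lower (Dnaja1, Dnajb1, Dnajb4, Hspb1), with a median log2 ratio of -0.65. Taken plate against plate that median ranged from -0.92 to -0.05. Of the 51 other members tested, 9 were higher and 7 lower, with a median of 0.22. With each cell left out in turn, 11 of the 25 members called stayed called: Chordc1, Stip1, Hsf1, Hspa4l, Dnajc1, Dnajc11, Dnajc15 and Dnajc21 on the higher side, and Hspa8, Dnajb9 and Dnajc14 on the lower side. The share of all called genes that stay called in this way was not computed. In CAR-like cells alone, 14 of 60 members were higher and 13 lower, where 18.9% and 16% of all genes were, and 17 of the 25 kept their call. Those CAR-like cells lay mostly in different clusters in each gate, with 4, 6 and 7 CD61+ cells and 23, 5 and 4 CD61- cells in clusters 1, 3 and 4.

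**Figure D2:**
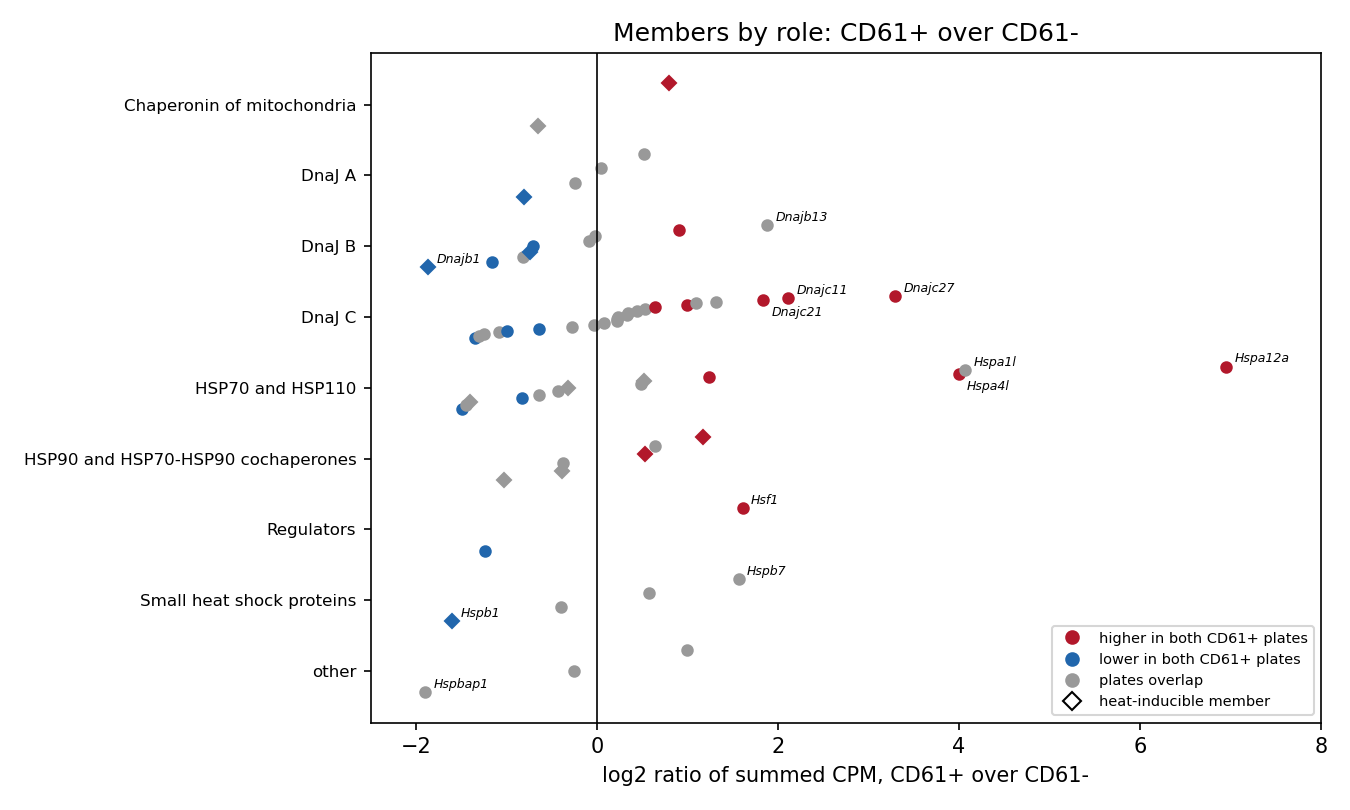
Log2 ratio of summed CPM, CD61+ over CD61-, for the 66 members tested, by role. Red points are higher and blue points lower in both CD61+ plates, grey points overlap, and diamonds are heat-inducible; Hspa12a, at 6.96, had no count in CD61- cells and stands at the floor of 3 counts over that gate.

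Within the CD61+ and CD61- gates, the HSP90 genes were the most abundant members per length of transcript. Hsp90ab1, the constitutive cytosolic HSP90, reached 627 CPM per kb in CD61+ cells and 812 CPM per kb in CD61- cells. Hsp90aa1, its stress-inducible partner, reached 563 CPM per kb in CD61+ cells and 1145 CPM per kb in CD61- cells. In summed CPM, Hsp90aa1 had 3054 and 597 in the CD61+ plates, against 2557 and 5377 in the CD61- plates. Those plates overlapped, and a CAR-like cell at 23304 CPM held 37.6% of all Hsp90aa1 counts of the CD61+ gate. Without that cell alone CD61+ plate 1 had 1793 CPM, below both CD61- plates, and the log2 ratio was -1.66 in place of -1.02. CD61- plate 1 also held such a cell, at 18000 CPM. Without the highest cell of each plate, Hsp90aa1 had 1793 and 529 CPM in the CD61+ plates and 1697 and 3967 CPM in the CD61- plates, again with overlap. Hsp90ab1 varied less, with 1919 and 1230.3 CPM in the CD61+ plates and 1797 and 2383 CPM in the CD61- plates.

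Of the HSP90 cochaperones, Chordc1 and Stip1 were higher in the CD61+ plates. Chordc1 had 126 and 93.6 CPM in the CD61+ plates, against 53.5 and 42.8 CPM in the CD61- plates, 2.25-fold higher in CD61+ cells (95% interval 2.17 to 2.34, counting error only). It was counted in 29 of 39 CD61+ cells and 16 of 40 CD61- cells, and with every cell thinned to 900000 counts in 25 of 35 and 16 of 39. Within CAR-like cells it had 120 and 192 CPM in the CD61+ plates and 61.0 and 4.38 CPM in the CD61- plates. Within osteolineage-like cells the direction was the reverse. There Chordc1 had 11.4 and 23.6 CPM in the CD61+ plates, against 24.4 and 171 CPM in the CD61- plates, with 3 such cells in each CD61- plate. The highest cell held 30.8% of its CD61+ counts, and leaving out each cell in turn gave log2 ratios of 0.71 to 1.68. Stip1, which links HSP70 to HSP90, had 46.9 and 48.7 CPM in the CD61+ plates, against 36.0 and 29.2 CPM in the CD61- plates. Within CAR-like cells Stip1 had 49.7 and 58.0 CPM in the CD61+ plates, against 30.2 and 16.4 CPM in the CD61- plates. Within osteolineage-like cells its direction was also the reverse, with 56.5 and 47.3 CPM in the CD61+ plates, against 74.3 and 74.6 CPM in the CD61- plates. Bag3, an exchange factor that sends HSP70 clients to autophagy, had 44.3 and 26.8 CPM in CD61+ plates and 54.2 and 37.0 CPM in CD61- plates, with overlap.

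Among the HSP70 genes, the constitutive Hspa8 was lower in CD61+ cells whichever cell was left out. It had 1122 and 868 CPM in the CD61+ plates, against 1581 and 2021 CPM in the CD61- plates, a log2 ratio of -0.83 that ran from -0.99 to -0.67 with each cell left out. Hspa8 was counted in 37 of 39 CD61+ cells and 40 of 40 CD61- cells, with medians of 818 and 1097 CPM. The inducible Hspa1a had 497 and 448 CPM in the CD61+ plates and 159 and 561 CPM in the CD61- plates, with overlap. Without 1 cell at 2851 CPM, CD61- plate 2 had 340 CPM, both CD61+ plates stood above both CD61- plates and the log2 ratio was 1.03 in place of 0.52. Its near copy Hspa1b had 84.9 and 16.1 CPM in CD61+ plates and 76.6 and 46.9 CPM in CD61- plates. Of the 31-base stretches of the Hspa1a transcripts, 63.8% also occurred in Hspa1b, so the split of reads between them is uncertain. Summed, the pair had 582 and 464 CPM in the CD61+ plates and 236 and 607 CPM in the CD61- plates, still with overlap.

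Among the HSP110 genes and other HSP70 relatives, calls went both ways. Hsph1, the inducible HSP110, had 17.3 and 14.2 CPM in the CD61+ plates and 59.8 and 17.2 CPM in the CD61- plates, and 1 cell held 48.1% of its counts in CD61- cells. Hspa4, another HSP110 exchange factor, had 17.1 and 4.91 CPM in the CD61+ plates, against 41.6 and 17.3 CPM in the CD61- plates, a call lost without any of 17 cells. Hspa4l, the third gene of that group, had 29.6 and 33.1 CPM in the CD61+ plates, against 3.36 and 0.0767 CPM in the CD61- plates. Hspa4l was counted in 11 of 39 CD61+ cells and 6 of 40 CD61- cells, and 1 cell held 80% of its counts in CD61- cells. The level of these genes lay far below that of Hspa8 in every plate. Hspa14, an HSP70 that works at the ribosome, had 33.3 and 57.6 CPM in CD61+ plates, against 27.9 and 7.46 CPM in CD61- plates, a call lost without either of 2 cells.

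Of the small heat shock proteins, which hold unfolded proteins without using ATP, 4 were tested and 1 differed between the plates. Hspb1 (HSP25 in mouse) had 373 and 18.96 CPM in the CD61+ plates, against 429 and 845 CPM in the CD61- plates. It was counted in 10 of 39 CD61+ cells and 15 of 40 CD61- cells, with a median of 0 in both gates and highest values of 1595 CPM in CD61+ cells and 7903 CPM in CD61- cells. The highest CD61- cell held 38.9% of that gate's Hspb1 counts, and without it CD61- plate 2 had 313 CPM and the plates overlapped. Hsp25-ps1 shares 89.8% of its 31-base stretches with Hspb1, but was counted in 2 cells of the 91.

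DnaJ genes made up 38 of the 70 members, 4 of class A, 10 of class B and 24 of class C. Dnajb1, the HSP40 that serves inducible HSP70, had 61.9 and 92.1 CPM in the CD61+ plates, against 174 and 423 CPM in the CD61- plates, the lowest log2 ratio of the inducible list at -1.87. That call rested on 1 cell of CD61- plate 1 at 1743 CPM, without which the plate had 87.1 CPM and overlapped with the CD61+ plates, at a log2 ratio of -1.61. Dnaja1, its class A relative, had 485 and 469 CPM in CD61+ plates and 503 and 1289 CPM in CD61- plates, and the call was lost without any of 8 cells. Dnajb4 had 43.0 and 20.4 CPM in CD61+ plates, against 53.2 and 53.6 CPM in CD61- plates. Without 1 cell CD61- plate 2 had 33.2 CPM of Dnajb4 and the plates overlapped.

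Of the 9 members of the endoplasmic reticulum, 2 were called higher, 2 lower and 5 overlapped, close to the 20.0% and 17.8% of all genes. Dnajb9, a cofactor of the chaperone of that compartment, had 39.0 and 44.9 CPM in the CD61+ plates, against 110.1 and 71.2 CPM in the CD61- plates, and was counted in 46.2% of CD61+ cells and 70% of CD61- cells. Dnajc1 had 204 and 217 CPM in the CD61+ plates, against 120 and 155 CPM in the CD61- plates. Dnajc3, Dnajb11 and Dnajc10, which fold or reduce proteins in the same compartment, had log2 ratios of 0.08, -0.08 and -0.03 with overlapping plates.

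Class C members acting elsewhere in the cell also split. Dnajc21, a factor of ribosome assembly, had 22.2 and 7.60 CPM in the CD61+ plates, against 4.53 and 3.81 CPM in the CD61- plates. Dnajc2, which works on nascent chains at the ribosome, had 24.4 and 10.2 CPM in the CD61+ plates, against 58.0 and 26.2 CPM in the CD61- plates. Dnajc7, which binds both HSP70 and HSP90, had 137 and 69.1 CPM in the CD61+ plates, against 149.9 and 177 CPM in the CD61- plates. Without 1 cell at 3381 CPM, the one with 1244 genes, CD61- plate 1 had 50.5 CPM of Dnajc7, the plates overlapped and the log2 ratio was -0.03 in place of -0.64. The Dnajc2 call was lost without any of 5 cells, while that of Dnajc21 held with each cell left out. Dnajc8, a splicing-associated gene and the class C member with the most counts, had 317 and 290.4 CPM in the CD61+ plates and 223 and 314 CPM in the CD61- plates, with overlap. Dnajc19, of the mitochondrial import motor, had 134.8 and 177 CPM in CD61+ plates and 135.1 and 70.1 CPM in CD61- plates, again with overlap.

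Of the 8 mitochondrial members, 3 were called higher (Hspd1, Dnajc11, Dnajc15) and none lower, where 20.0% and 17.8% of all genes were, with a median log2 ratio of 0.53 beside 0.01 over all genes. Hspd1, which encodes the HSP60 chaperonin, had 178 and 99.9 CPM in the CD61+ plates, against 90.8 and 66.4 CPM in the CD61- plates. Its partner Hspe1 had 62.2 and 252 CPM in CD61+ plates and 106 and 429 CPM in CD61- plates, with overlap. Dnajc15, of the protein import motor, had 69.2 and 66.1 CPM in the CD61+ plates, against 27.8 and 42.4 CPM in the CD61- plates. Dnajc11, a mitochondrial membrane protein, had 33.5 and 25.9 CPM in CD61+ plates, against 9.20 and 3.76 CPM in CD61- plates, and it was counted in 27 of 39 CD61+ cells and 35 of 40 CD61- cells, or in 21 of 35 and 21 of 39 at the thinned depth. Hspa9, the mitochondrial HSP70, had 34.04 and 29.5 CPM in the CD61+ plates and 72.8 and 2.68 CPM in the CD61- plates. The call of Hspd1 was lost without either of 2 cells of CD61+ plate 2, and those of Dnajc15 and Dnajc11 were not lost without any cell.

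Of the heat shock factors, Hsf1 was called higher and Hsf2 lower. Hsf1, the activator of the heat shock response, had 33.8 and 23.3 CPM in the CD61+ plates, against 11.7 and 6.26 CPM in the CD61- plates, and its log2 ratio of 1.61 ran from 0.97 to 1.94 with each cell left out. It was counted in 15 of 39 CD61+ cells and 10 of 40 CD61- cells, and at the thinned depth in 14 of 35 and 9 of 39. Hsf2, its relative, had 12.7 and 2.79 CPM in the CD61+ plates, against 16.8 and 20.6 CPM in the CD61- plates. The Hsf2 call was lost without either of 2 cells, and without 1 of them CD61- plate 2 had 5.51 CPM and the log2 ratio was -0.63 in place of -1.24. The inducible members had a median log2 ratio of -0.65 in the same contrast.

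**Figure D3:**
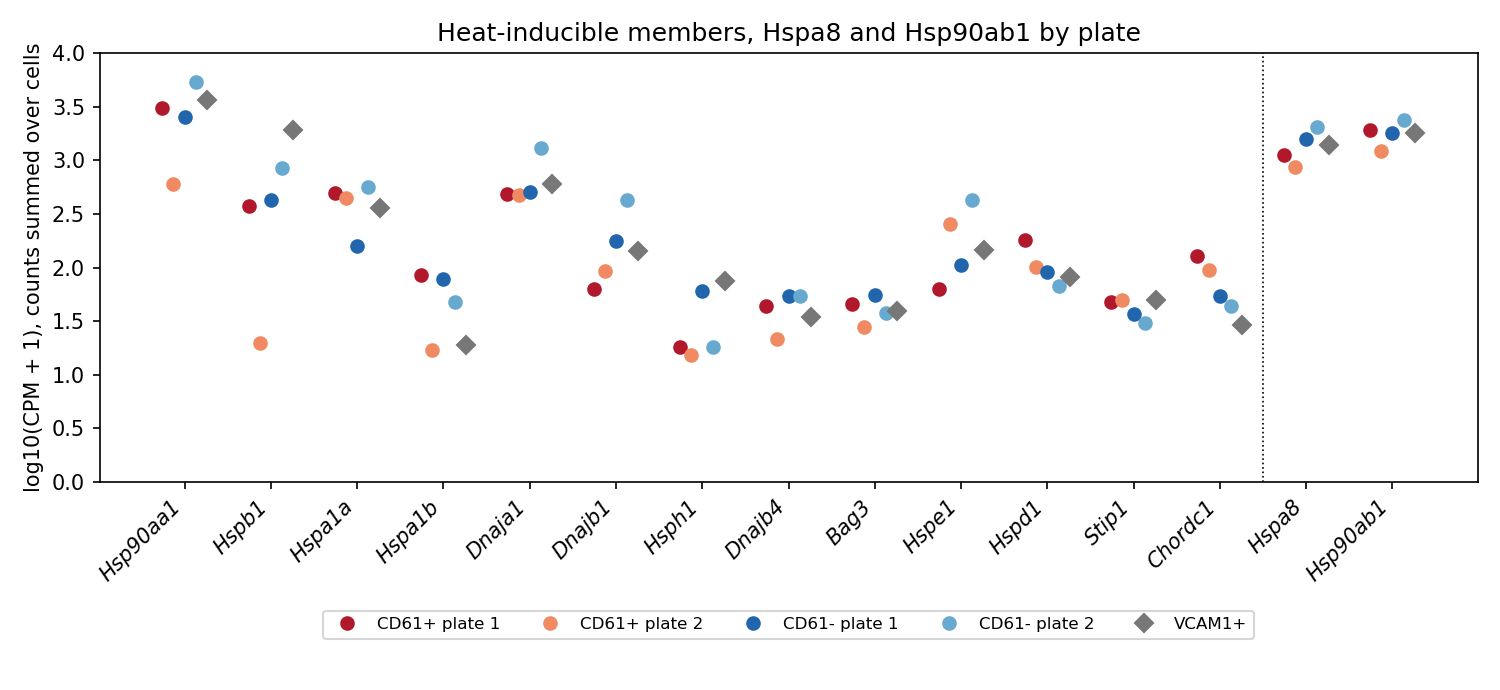
Summed counts of the 13 heat-inducible members and of Hspa8 and Hsp90ab1, as log10 of CPM plus 1, in each CD61+ plate, each CD61- plate and the VCAM1+ cells (diamonds). Hsp90aa1 and Hspb1 are lowest in CD61+ plate 2, at 597 and 18.96 CPM, and both CD61+ plates stand above both CD61- plates for Chordc1 and Stip1.

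Clustering without the members gave cell classes in which the summed level of Hspa1a differed. Of the 88 cells, 26 were called osteolineage-like (19 of the CD61+ and 6 of the CD61- gate), 53 CAR-like (17 and 32), and 9 formed a mixed cluster called endothelial-like. The summed level of Hspa1a was higher in osteolineage-like than in CAR-like cells of each plate, in CD61- plate 1 through 1 cell. It had 695 and 713 CPM in osteolineage-like cells of the CD61+ plates, against 58.1 and 32.4 CPM in their CAR-like cells. In the CD61- plates it had 293 and 1381 CPM in osteolineage-like cells, 3 in each plate, against 140 and 330 CPM in CAR-like cells. Without 1 of the 3 osteolineage-like cells of CD61- plate 1 the value there was 95.7 CPM, below that of CAR-like cells, and no other single cell turned the direction in any plate. Hspa1a was counted in 22 of 26 osteolineage-like cells (84.6%) and 19 of 53 CAR-like cells (35.8%), pooled over plates and gates. At the thinned depth it was counted in 20 of 23 osteolineage-like and 18 of 46 CAR-like cells. Its near copy Hspa1b was higher in osteolineage-like cells in 3 of 4 plates. The split of reads between these genes is uncertain, and they were not summed by class.

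Within CAR-like cells, both CD61+ plates stood below both CD61- plates for Hspa1a, although the plates overlapped over all cells. Its log2 ratio was -2.22 within CAR-like cells and 0.52 over all cells of the gates. Hspa1a was counted in 4 of 17 CAR-like cells of the CD61+ gate and 14 of 32 of the CD61- gate, and in CD61+ plate 2 in 1 of 8. Hspb1 was also lower within CAR-like cells, with 240 and 27.5 CPM in the CD61+ plates, against 409 and 1151 CPM in the CD61- plates. In CD61+ plate 1 it was counted in 2 of 9 CAR-like cells, and 1 of them held 89.9% of its counts. Hspa8 had 1353 and 792 CPM in CAR-like cells of the CD61+ plates, against 1548 and 2140 CPM in those of the CD61- plates, and the plates overlapped without 1 cell of CD61+ plate 1.

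Few members separated the classes in every plate, and of 10 that did only Dnajb6 kept its direction with each cell left out. In addition to Hspa1a, Hsp90ab1 and the class A gene Dnaja2 were higher in osteolineage-like than CAR-like cells of all 4 plates, which makes 3 of 66 members where 3.5% of 13763 genes did the same. Lower in all 4 were 7 of 66, beside 14.4% of all genes: Dnajb6, Dnajc14, Hspa12b, Hspa13, Hspa14, Hspb6 and Hspbap1. Dnajb6, which keeps proteins from aggregating, had 111 and 70.9 CPM in osteolineage-like cells of the CD61+ plates, against 167 and 152 CPM in their CAR-like cells. In the CD61- plates Dnajb6 had 6.92 and 55.5 CPM in osteolineage-like cells, against 171 and 142 CPM in CAR-like cells. Taking only the CD61+ gate, with the osteolineage-like cells of both plates above or below the CAR-like cells of both, 8 of 59 members were higher and 13 lower, beside 14.7% and 25.4% of 11882 genes. Of the inducible members Hspa1a and Hspa1b were higher there, and Bag3 and Chordc1 lower. Of 16 immediate early genes, 6 were higher there (Fos, Egr1, Ier2, Ier3, Atf3, Zfp36) and none lower, beside the same shares of all genes. Their part in the class difference of Hspa1a was not tested. For the inducible members together, the osteolineage-like cells of the CD61+ plates had 4020.5 and 2559 CPM, against 5343 and 1551 CPM in CAR-like cells, with no common direction. The 5343 CPM of CD61+ plate 1 included 1 CAR-like cell at 27361 CPM, which held 83.1% of the Hsp90aa1 counts of these CAR-like cells. The median cell gave osteolineage-like cells the higher value in both CD61+ plates, with 4789 and 1896 CPM against 1435 and 1088 CPM.

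**Figure D4:**
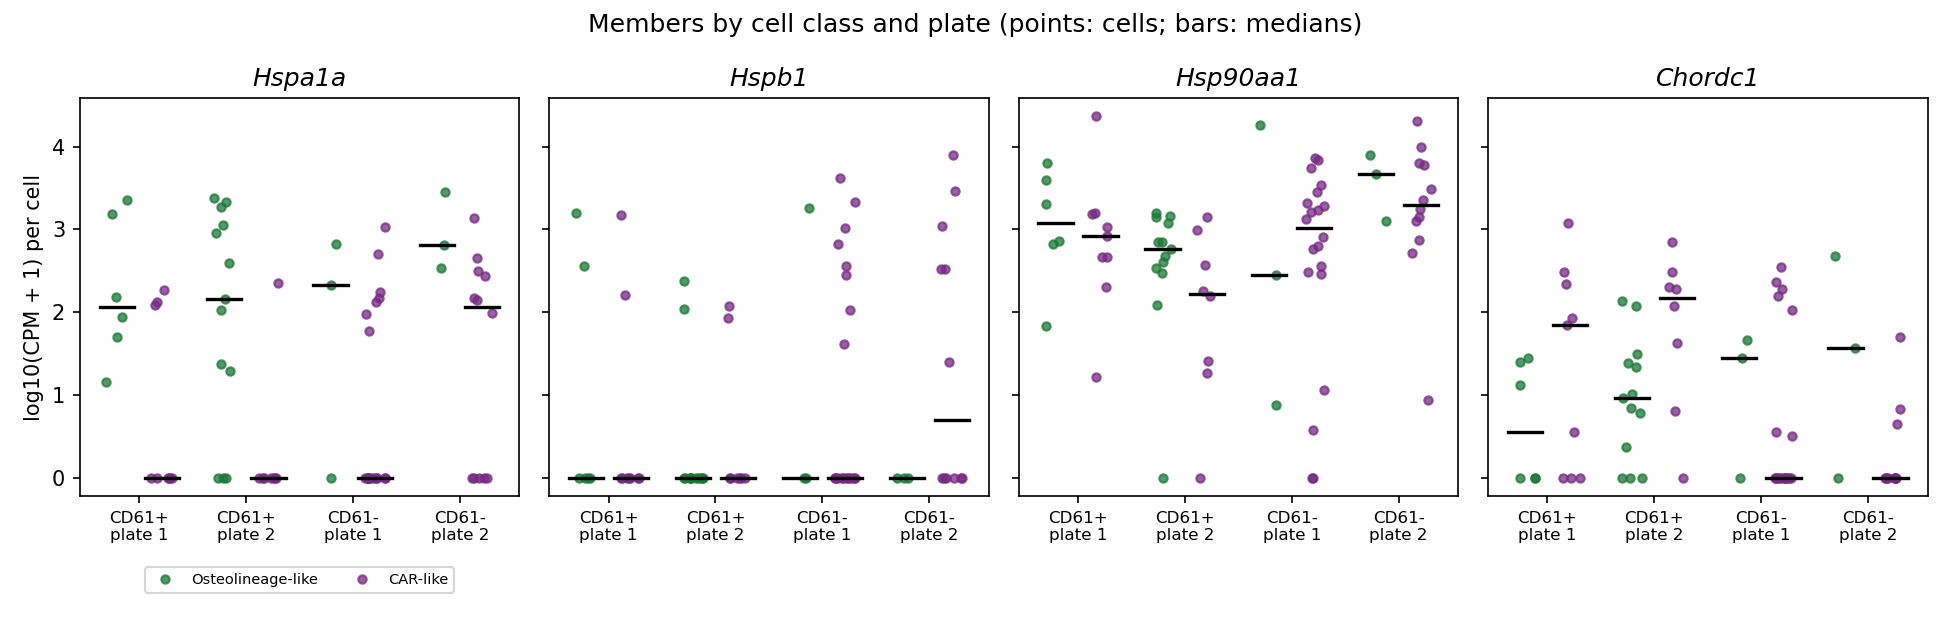
Log10 of CPM plus 1 per cell for Hspa1a, Hspb1, Hsp90aa1 and Chordc1 in osteolineage-like (green, left of each pair) and CAR-like cells (purple, right), by plate. Points are cells and bars are medians; Hspa1a is counted in 22 of 26 osteolineage-like cells over the 3 gates and in most CAR-like cells of the CD61+ plates it is at 0.

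Across cells the summed CPM of both the inducible and the other members varied with immediate early genes, while as summed log2 levels the other members followed less closely. Over the 88 assigned cells, the 10 genes outside the members whose level followed the summed inducible CPM most closely included Fos, Jun, Jund, Egr1, Ppp1r15a, Dusp1, Junb, Fosb and Ccn1, with Spearman rho of 0.70 for Fos and 0.47 for Ccn1, out of 4187 genes counted in at least 50% of cells. The summed CPM of inducible members and of immediate early genes had a rho of 0.67 over these cells and of 0.57 and 0.73 in the CD61+ plates, 0.49 and 0.78 in the CD61- plates and 0.83 in the 9 VCAM1+ cells. For the other members the rho was 0.62 over the 88 cells, 0.58 and 0.36 in the CD61+ plates, 0.49 and 0.78 in the CD61- plates and 0.83 in the VCAM1+ cells. With each cell thinned to 900000 counts the rho was 0.66 for the inducible and 0.55 for the other members over 74 cells of both split gates. As summed log2 levels, which weigh abundant genes less, the rho over the 88 cells was 0.64 for the inducible and 0.34 for the other members. For the other members it was 0.65 and 0.58 in the CD61+ plates and -0.01 and 0.59 in the CD61- plates. In the VCAM1+ cells it was 0.38 for the inducible and 0.53 for the other members. These cells share plates, and a CPM value is a share of a fixed total. Immediate early genes had a median of 3525 CPM in CD61+ cells and 8398 CPM in CD61- cells. By plate 9 of the 16 tested were called lower and none higher, where 17.8% and 20.0% of all genes were.

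Single members followed this score to different degrees, and inducible and other members overlapped although the inducible median was higher. Hspa8 had the highest rho with the summed log2 level of immediate early genes, at 0.65, and it is a constitutive gene. Hsp90aa1 (0.60), Dnajb1 (0.53), Dnaja1 (0.50) and Hspa1a (0.49) came next, then the constitutive Hsp90ab1 (0.43). In each of the 4 plates the rho of these 6 genes was above 0. Hspe1 (0.16), Dnajb4 (0.10) and Hspd1 (0.10) were weakly related to it, and Chordc1 had the lowest rho of the 26 members compared, at -0.24. Medians were 0.33 over 8 inducible members, 0.14 over 18 other members and 0.07 over 4174 other genes. The inducible sum in CPM had a rho of 0.33 with total counts, 0.08 with genes per cell and -0.31 with the percent of mitochondrial counts. As a summed log2 level, the inducible members had a rho of 0.58 with total counts and 0.58 with genes per cell. The summed log2 level of the other members had a rho of 0.80 with genes per cell. The part of these in the relation was not tested. Among members themselves, Hsp90aa1 and Hspa8 had a rho of 0.50, Hsp90aa1 and Dnaja1 0.50, and Dnaja1 and Dnajb1 0.47, while the median over 28 pairs of inducible members was 0.12.

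**Figure D5:**
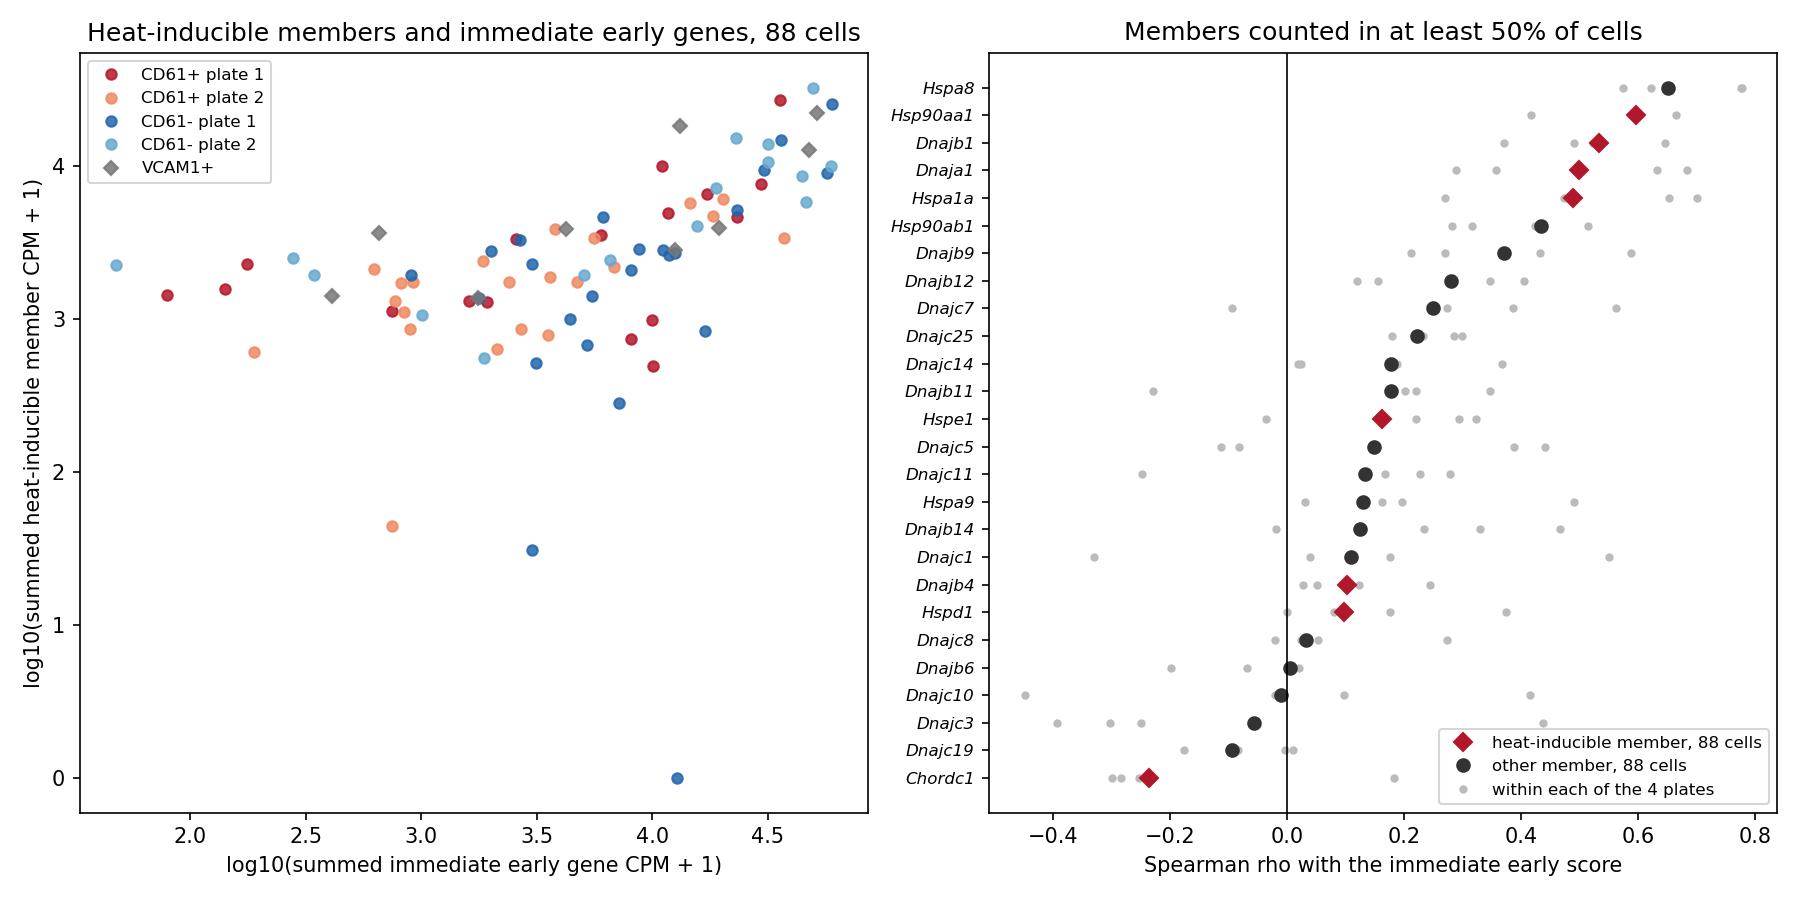
Left, log10 of the summed CPM plus 1 of the 13 heat-inducible members against that of the immediate early genes, per cell and coloured by plate. Right, Spearman rho of each of 26 members with the summed log2 level of immediate early genes over 88 cells (red diamonds inducible, black points other) and within each plate (grey); it runs from 0.65 for Hspa8 to -0.24 for Chordc1.

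Other chaperone genes, listed by function, gave no common direction either. Of 24 cochaperones and further targets of heat shock factor 1, 4 were called higher and 6 lower, where 20.0% and 17.8% of all genes were, with a median log2 ratio of -0.20. Ubb, which encodes ubiquitin, was among the lower and had 2717 and 2791 CPM in the CD61+ plates, against 4402 and 5170.2 CPM in the CD61- plates. Serpinh1, the collagen chaperone HSP47 and a heat-inducible gene, was on the higher side with 1295 and 1667 CPM in the CD61+ plates, against 1202 and 819 CPM in the CD61- plates. Hsbp1, a binding protein of heat shock factor 1, had 280 and 349 CPM in the CD61+ plates and 431 and 317 CPM in the CD61- plates. Of 7 genes of the cytosolic chaperonin TRiC, which folds actin and tubulin, 2 were called higher and none lower, too few to read against those shares. Cct2 had 164 and 195 CPM in the CD61+ plates, against 69.7 and 52.9 CPM in the CD61- plates, and was named after its values were seen. Cct5 had 243 and 146 CPM in CD61+ plates, against 129 and 74.5 CPM in CD61- plates, while Cct8, Cct7 and Tcp1 overlapped with log2 ratios of 0.13, -0.02 and -0.11.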

How the data were processed

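Single cells of mouse bone marrow were assigned to the gates that their labels name, and 3 cells with labels that disagree entered no comparison. Expected counts per gene, as deposited by the authors, come from kallisto 0.43.0, with R 3.5.1 also named and mm10 as the build, per the submitters' processing notes; no annotation is stated there. All deposited expected counts were whole numbers and are not normalised. The deposited count of reads per cell equalled the column sum in all 91 cells, and genes per cell are a count by the authors. Index-sort values are deposited intensity values on a linear scale. A further 43 columns of sort and cell values went unused.

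Per plate or gate, the cells' counts were added up and scaled by their total (CPM). Genes entered with 10 counts or more and a count in at least 5 cells. A member was called when both plates of the CD61+ gate lay above, or below, both plates of the CD61- gate. Sums under 3 counts per gate were raised to that floor for log2 ratios; intervals are exact, at 95%, and cover counting error only, since Smart-seq2 reads are not independent molecules. For comparisons of cells with a count, each cell was thinned to 900000 counts, which left out 4 CD61+ and 1 CD61- cells. The 88 assigned cells were clustered without the members on log2(CPM + 1) of 2000 variable genes, using 10 neighbours in 15 principal components and the Leiden method at resolution 1 (scanpy 1.11.5 and igraph 0.11.9 in Python 3.11.15, with scipy 1.17.1, pandas 2.3.3, numpy 2.4.6 and matplotlib 3.10.9). Classes were named from marker lists, no cell was removed, and no doublet caller was run. Named were the inducible members, the 15 other members with most counts, members with plates apart by a log2 ratio of at least 1 and a count in 20% of cells of the higher gate, the heat shock factors, the members with the fewest counts, the 10 genes closest to the inducible sum, and the 4 most abundant genes of each further list; not each is given with its values, and 1 gene is not reported here. Gene positions and transcript lengths came from GENCODE vM21, and levels per kb used the longest transcript of each gene. The steps were tested on simulated data. Alternatives were size factors of DESeq2 1.42.0, TMM factors of edgeR 4.0.16 (both in R 4.3.3), the mean over cells, no filter, thinning, other clusterings, and leaving out plates or cells. The members and lists were chosen with earlier results of these data known.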

Additional observations from a re-analysis of the deposited data

Results flagged for a closer look

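In the 9 VCAM1+ cells, 18 values were looked at for a cell far from the others, and 6 members had 1 such cell by the 95% limit of Dixon's ratio. Chance flags about 1 in 20 for normally distributed values only. CPM values of single cells are skewed and hold zeros, so the rate here is not known and can be higher. Hspb1 reached 14826 CPM in 1 cell called endothelial-like, against 288 CPM in the next, and was counted in 3 of the 9 cells. The same cell was highest for Hsph1, at 413 CPM against 75.6 CPM in the next. Hsp90aa1 stood at 21657 CPM in another cell, against 9921 CPM in the next. Highest cells for Dnaja1 (2425 CPM), Hspe1 (615 CPM) and Bag3 (231 CPM) were 3 further cells. So the VCAM1+ sum of 1935 CPM for Hspb1 rests on 1 cell.

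The 3 cells whose title says CD61- and whose gate label says CD61+ entered no comparison. Their inducible members summed to 9375, 19318 and 18105 CPM, and their other members to 11434, 8725 and 14144 CPM. Hsp90aa1 stood at 1945, 9734 and 14765 CPM in these cells, in the same order. Each of these inducible sums lies above the median of both split gates, 1760 CPM in CD61+ cells and 2676 CPM in CD61- cells.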

How the results depend on the processing

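No paired analysis was possible because replicate numbers only name the cells and pair none across gates, and each gate is 1 sample. The median log2 ratio of the inducible members stayed below 0 under all alternatives run, at -0.22 when each cell was thinned to 1 depth, and leaving out a plate or cell gave -0.89 to -0.25. The median of the other members was not stable in sign: leaving out a plate or cell gave -0.19 to 0.44, with the reversal without CD61+ plate 1; it was 0.35 by the mean over cells and 0.084 in CAR-like and osteolineage-like cells only. Leaving out a plate raised the members higher to 22 to 24 and the members lower to 21 to 24, since fewer plates are compared, while 32.5% to 41.8% and 31.5% to 37.5% of all genes were then called. The inducible share of summed counts was lower in CD61+ than in CD61- cells by the alternatives run, but the median over cells was higher (34.6% against 33.2%); the summed difference was -17.5 to -0.24 percentage points when a plate or cell was left out. The log2 ratio of inducible CPM in osteolineage-like over CAR-like cells of the CD61+ gate was -0.17 and turned to 0.035 when clustered at resolution 0.6. The cause was not tested, and at resolution 1 the CAR-like side included the cell at 27361 CPM. Single-cell libraries with 2 plates per gate limit all gate contrasts to a description: 14 of 25 calls were lost without some single cell, and 17 members that overlapped were called without some cell. The matching shares over all genes were not computed. Cells with at least 2500 genes, chosen after seeing the data, gave 15 higher and 12 lower and an inducible median of -0.70. The values within CAR-like cells, the summed CPM relations and the values without each cell were also chosen after seeing the data.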
